A study of Mus musculus with 6 samples.

Results

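The genes described here belong to the TBC domain family of Rab GTPase-activating proteins (GAPs) of the mouse, which includes Sgsm1. Whether each encodes an active GAP was not examined, and GAP is used here as the name of the family. The genes were chosen by gene symbol, as genes of the deposited comparison named Sgsm or Tbc1d with a number. Tbck, Evi5, Evi5l, Usp6nl, Rabgap1, Rabgap1l and Grtp1 were included as well, which gave 38 of 20624 genes. The family was picked because Sgsm1 had the largest increase among the well-counted genes, so the difference between the genotypes took part in the choice. The members' values, and the threshold calls made from them, are therefore given as a description and not as a test. RNA sequencing was performed on mDCT15 cells, an established mouse line labelled as distal convoluted tubule cells, in 3 wild type and 3 Pkd1-/- samples. Pkd1 encodes polycystin-1, the protein most often mutated in autosomal dominant polycystic kidney disease, and the study compared the genotypes to look for genes that accompany a change in extracellular vesicle release. The Pkd1-/- cells were made by CRISPR-Cas9 editing and are titled Pkd1-/-, while their genotype field calls them a knockdown. Whether they descend from 1 clone is not given in the sources used here, so the effect of the edit and that of a single derived line cannot be told apart. All samples came from cells grown in the same medium with serum, and the labels name no treatment.

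Rab proteins are small GTPases that mark the membranes of the cell and recruit the machinery for vesicle budding, movement, tethering and fusion. A guanine nucleotide exchange factor (GEF) loads a Rab with GTP and switches it on, a GAP with a TBC (Tre-2/Bub2/Cdc16) domain speeds the hydrolysis of that GTP and switches it off, and a GDP dissociation inhibitor (GDI) carries the inactive Rab through the cytosol. In renal epithelial cells these cycles are known to serve apical and basolateral sorting, endocytosis and recycling, autophagy, the release of vesicles and the growth of the primary cilium, where polycystin-1 also resides.

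Sgsm1 (ENSMUSG00000042216) lies on the minus strand of chromosome 5, and its body spans chr5:113391086-113458694 in GRCm39, the build to which the authors mapped the reads. RefSeq gives 2 start sites for it in the GRCm38.p6 assembly, 30.2 kb apart, and the 250 bases before each are shown because Sgsm1 carries the largest difference of the family. The capitals mark CG dinucleotides, and the sequences read 5′ to 3′ on the minus strand, from chr5:113310787-113311036 for the upstream start and chr5:113280602-113280851 for the downstream start.
Sgsm1 upstream start: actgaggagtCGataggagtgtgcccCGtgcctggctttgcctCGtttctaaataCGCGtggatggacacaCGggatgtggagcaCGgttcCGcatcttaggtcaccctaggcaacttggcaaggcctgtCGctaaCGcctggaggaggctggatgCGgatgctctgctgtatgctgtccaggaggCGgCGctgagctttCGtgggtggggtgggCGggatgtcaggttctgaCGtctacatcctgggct
Sgsm1 downstream start: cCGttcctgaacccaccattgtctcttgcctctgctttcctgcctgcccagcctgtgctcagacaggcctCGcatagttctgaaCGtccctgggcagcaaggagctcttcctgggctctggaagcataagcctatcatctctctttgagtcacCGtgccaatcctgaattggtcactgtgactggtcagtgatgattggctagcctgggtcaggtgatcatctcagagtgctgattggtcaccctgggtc
The upstream sequence held 16 CG dinucleotides and the downstream sequence 4. With the 50 bases after the start included, the counts were 22 and 6, against a median of 7 over all 32851 mouse promoter windows of that length and of 23, with a range of 1 to 51, over the 41 windows found for 31 of the 38 genes. The GC box (GGGCGG, either strand) was found in the upstream Sgsm1 window and not in the downstream one, and in 28 of the 41 windows of the family (68.3%) against 35.7% of all windows. The CCAAT box (CCAAT, either strand) was found in the downstream Sgsm1 window only, and in 12 of the 41 (29.3%) against 37.4% of all windows. The TATA box (TATAAA, either strand) was in neither Sgsm1 window, and in 1 of the 41 (2.44%) against 13.6% of all. The motifs were searched one by one and none contains another, and a match is a description of the sequence only. The windows of Tbc1d8, which start at positions 39478698 and 39478706 of chromosome 1, largely overlap, and each was counted. The table counts reads per gene, so which start was used cannot be told from it. No window was matched for Tbc1d10c, Tbc1d16, Tbc1d17, Tbc1d19, Tbc1d30, Tbc1d31 and Tbc1d32.

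The values come from the deposited comparison of the genotypes. Each gene has there a mean of its normalized counts across the 6 samples, the log2 fold change between the genotypes, the standard error (SE) of that change, and a p-value. Single samples have no values of their own in it, so no level per sample can be shown, the depth of each library is unknown, and the error given is the SE of the fitted fold change over 3 against 3 samples. The samples are titled as biological replicates, but nothing says that they came from separate thaws or cultures. Each p-value weighs the fold change against its SE, which was fitted from these samples only. Fold changes are given as Pkd1-/- over wild type on the log2 scale. The level in each genotype was computed from the mean and the fold change, and carries no error of its own. Genes are said to be higher or lower where the adjusted p-value (Benjamini-Hochberg over all genes) was under 0.05.

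Among the markers fixed for the distal convoluted tubule, 4 of 7 had values in the table, with means from 5.70 to 413, and their summed level was 697 in wild type and 277 in Pkd1-/- cells. Most of this sum was Wnk4 (599 and 227), which was lower, as were Kcnj10 (64.7 and 11.9) and Klhl3 (11.0 and 0.424), whereas Trpm6 was higher (22.3 and 36.9, adjusted p = 0.0318). No value was at hand for Slc12a3, the thiazide-sensitive cotransporter that defines this segment, nor for Pvalb and Calb1. Of the epithelial markers 2 of 5 had values, with a summed level of 98.1 and 135. Nearly all of this was Epcam (97.8 and 133), while Krt8 was almost absent (0.314 and 1.65), and Cdh1, Krt18 and Krt19 had no value. Of the markers of leukocytes, endothelium, macrophages and podocytes 2 of 6 had values, with a summed level of 6.92 and 13.2. Pkd1 itself had a log2 fold change of -0.33 (95% interval -0.49 to -0.17, adjusted p = 0.000204), from a level of 3541 to 2809, so its transcript was still counted in the edited line. Over the genes that averaged 100 or more normalized counts, called well counted below, the median log2 fold change was 0.02 over all chromosomes, but -0.39 on chromosome 6, -0.43 on chromosome 16 and 0.66 on the X chromosome. The part of these chromosome-wide shifts in the values of single genes was not tested, and the median of the chromosome is given beside each result on those chromosomes.

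The GAP family was divided between genes with higher and genes with lower transcript levels in Pkd1-/- cells. Of the 38 genes, 24 passed the threshold (63.2%), where 35.7% of all genes did so. They split into 13 higher (34.2%, against 16.9% of all genes) and 11 lower (28.9%, against 18.8%). The family is well counted, with means from 17.3 to 2172 and a median of 752, and 36 of the 38 genes averaged 100 or more. Of all well-counted genes 56.2% passed, 29.5% as higher and 26.7% as lower, and of the 36 members 23 passed (63.9%). Because the family was chosen on this comparison, nothing is read from these shares. The median log2 fold change of the family was -0.01, or -0.03 without Sgsm1, and 29 of the 38 genes lay within 0.5 of 0. Only Sgsm1 was higher, and only Tbc1d16 lower, by more than 2-fold with an adjusted p under 0.05, where 2.53% of all genes were higher and 6.4% lower by this measure. Sgsm1 was chosen for its increase, so its passing, here and in the counts above, was fixed in advance. For 34 genes the whole 95% interval lay within a 2-fold change in either direction, the exceptions being Sgsm1, Tbc1d2, Tbc1d10c and Tbc1d16.

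**Figure D1:**
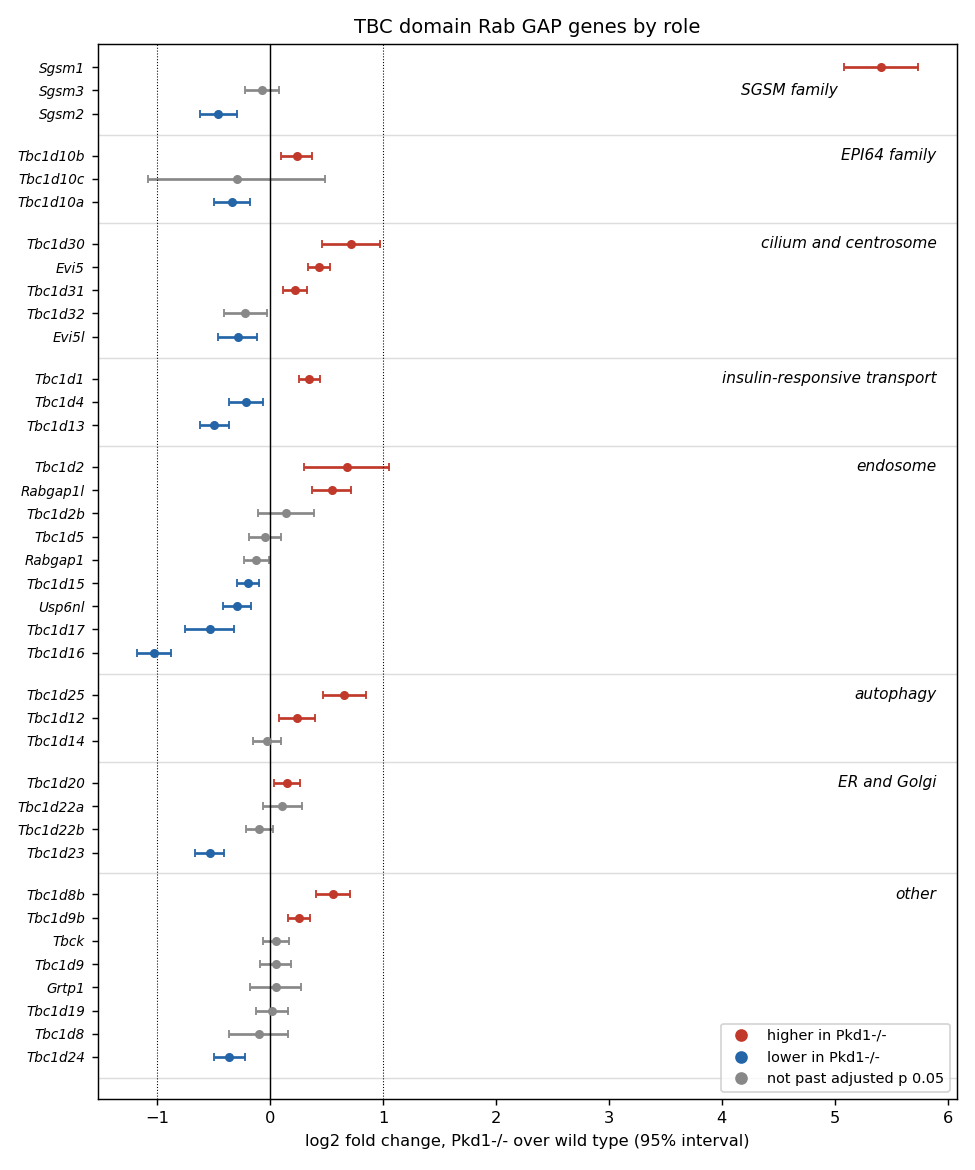
Log2 fold change (Pkd1-/- over wild type, x axis) of the 38 TBC domain genes (y axis, grouped by role), with points for the fitted value and bars for its 95% interval over 3 against 3 samples. Sgsm1 stands at 5.41, Tbc1d16 at -1.03, and the other genes lie between -0.54 and 0.71.

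The small G protein signaling modulators join the TBC domain to a RUN domain, and Sgsm1 and Sgsm2 are known for binding Rab9 of the late endosome. Sgsm1, also called RUTBC2, acts on Rab36 and is known mainly from neurons. Its log2 fold change was 5.41 (SE 0.17, 95% interval 5.09 to 5.74), a 42.6-fold higher level (33.9 to 53.5), from a mean normalized count of 14.5 in wild type to 617 in Pkd1-/- cells. It ranked 13 among all genes by log2 fold change, and 1 among the well-counted genes, where Dpysl3 (4.14) and Igf1 (4.04) followed. Its mean over all samples was 316, so Sgsm1 is well counted only through its level in Pkd1-/- cells. The rank and the fold change of Sgsm1 are the values that chose the family. Sgsm2, or RUTBC1, which acts on Rab32 and Rab33b, was lower, with a log2 fold change of -0.46 (95% interval -0.63 to -0.30) and levels of 582 and 423. Sgsm3, which acts on Rab5, did not pass the threshold, at -0.07 (95% interval -0.22 to 0.07) and levels of 592 and 562. Sgsm1 has 26 annotated transcripts, and no exon base of it is shared with another annotated gene.

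**Figure D2:**
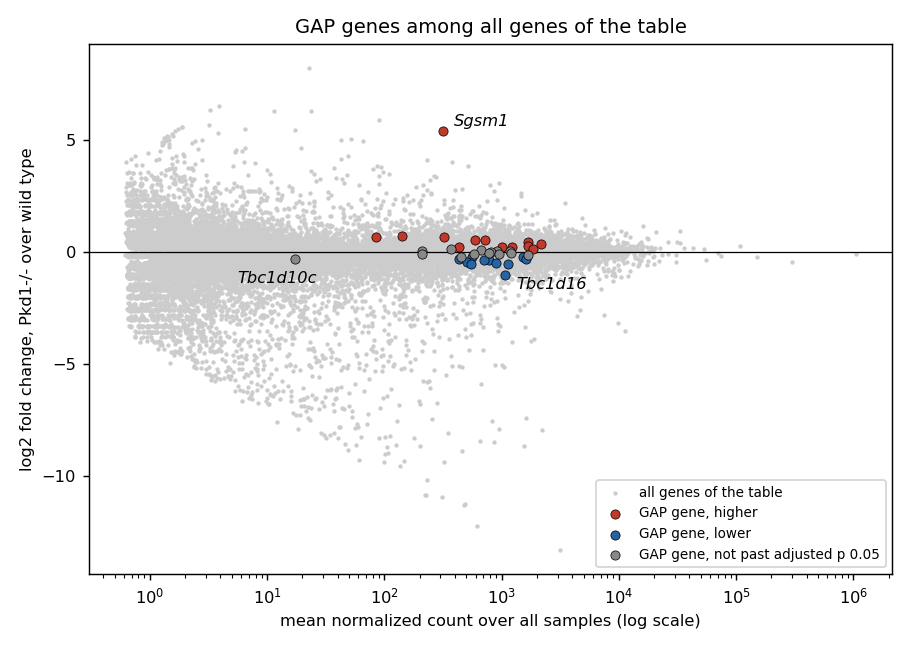
Log2 fold change (Pkd1-/- over wild type, y axis) against the mean normalized count over all samples (x axis, log scale) for all 20624 genes (grey) and the 38 TBC domain genes (colored by direction). Most of the family sits close to 0 at means above 100, Sgsm1 (mean 316) lies at the upper edge of the genes of its level, and Tbc1d10c (mean 17.3) is the least counted.

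To see the levels of the genes beside each other, the level in each genotype was divided by the length of all annotated exons in kb. Per kb, Tbc1d20 was highest in wild type cells (381), followed by Tbc1d1 (249), Tbc1d13 (219), Usp6nl (200) and Tbc1d10a (184). Sgsm1 was the lowest of the 38 in wild type cells, with 1.79 per kb, and ranked 21 in Pkd1-/- cells, with 76.2 per kb. On this per-kb scale, its share of the 3 SGSM transcripts went from 1.27% to 38.7%, and its share of the whole family from 0.0479% to 2.00%. Summed over the family, the level per kb was 3734 in wild type and 3811 in Pkd1-/- cells, a ratio of 1.02, and 1.00 without Sgsm1. The order of the 5 highest genes, the sums, and the ranks and shares of Sgsm1 depend on annotated lengths as well as on counts. Which transcripts these cells use is not known from the table.

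**Figure D3:**
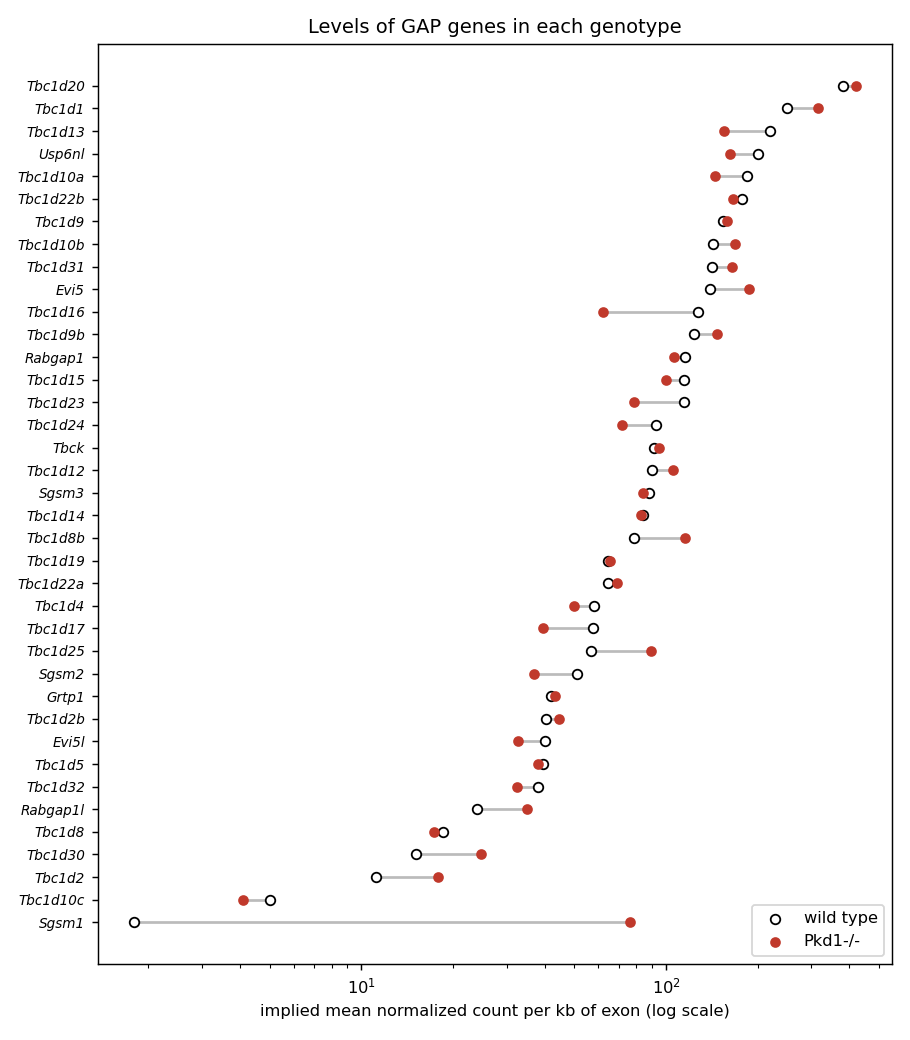
Level of each TBC domain gene (mean normalized count per kb of exon, x axis, log scale) in wild type (open) and Pkd1-/- cells (red), computed from the mean and the fold change and ordered by the wild type level. Sgsm1 moves from the bottom of the order (1.79) to its middle (76.2), while for most genes the symbols nearly touch.

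The genes beside Sgsm1 on the chromosome are given with their own values. Since Sgsm1 was picked as the largest increase among well-counted genes, no such neighbour could exceed it, and its value is not compared with theirs. Within 500 kb of its body lay 4 genes averaging 10 or more normalized counts, all of them well counted. Of the 4, 1 passed the threshold (25%, against 35.7% of all and 56.2% of well-counted genes). This was 2900026A02Rik, 21.9 kb away, with a log2 fold change of 0.16 (95% interval 0.05 to 0.26, adjusted p = 0.0107). Hps4, the next gene on that side averaging 10 or more normalized counts, was 865 kb away, at -0.02 (adjusted p = 0.900). On the other side, Ficd stood at 0.07 (adjusted p = 0.779), 415 kb away, and Sart3 at -0.06 (adjusted p = 0.479), 420 kb away. Iscu, the last gene of the window, stood at 0.03. Within 1 Mb, 5 of 17 genes passed (29.4%, against the same 2 shares), 3 higher and 2 lower, and 13 of the 17 were well counted. Acacb, an acetyl-CoA carboxylase 826 kb away, was lower by more than 2-fold (log2 fold change -1.76, adjusted p = 1.57e-10), as were 6.4% of all genes. The median of chromosome 5 was 0.06, over 671 genes.

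**Figure D4:**
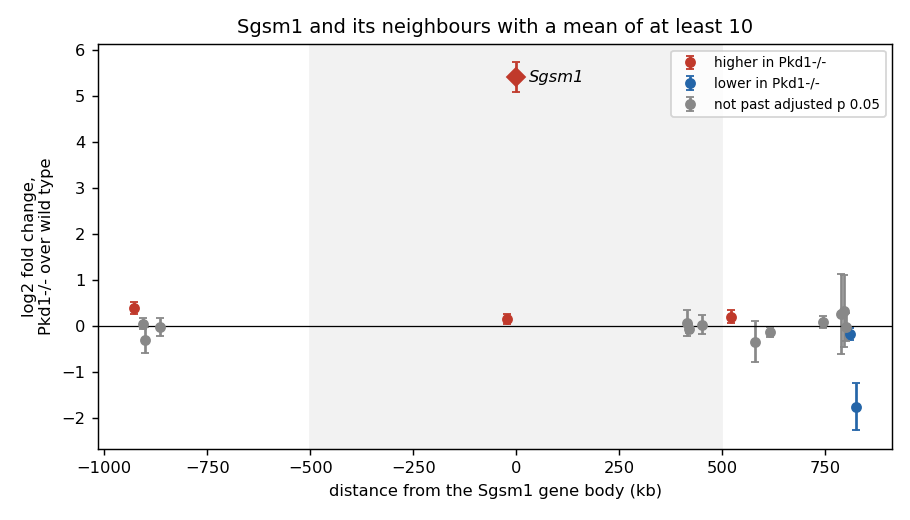
Log2 fold change (Pkd1-/- over wild type, y axis) of Sgsm1 and of genes averaging 10 or more normalized counts by their distance from its body in kb (x axis), with bars for the 95% interval and grey shading for the 500 kb on either side. Sgsm1 stands at 5.41, and the 4 genes in the shaded window lie between -0.06 and 0.16.

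The EPI64 group, whose GAPs act on Rab27 and Rab35 in exosome secretion and at the microvilli, had members on both sides of 0. Tbc1d10a (EPI64) was lower, at -0.34 (95% interval -0.50 to -0.18), with levels of 872 and 689. Tbc1d10b (EPI64B) was higher, at 0.23 (95% interval 0.10 to 0.37), with levels of 923 and 1086. The 2 intervals do not overlap. Tbc1d10c, or carabin, known from lymphocytes, had a mean of 17.3 and a log2 fold change of -0.30 with a 95% interval of -1.08 to 0.48, so that a fall past 2-fold and a rise of 1.40-fold could not be told apart at this depth.

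Of the 5 genes tied to the cilium and the centrosome, 3 were higher, 1 was lower and 1 did not pass. All 5 are well counted. Of all well-counted genes 29.5% were higher and 26.7% lower, and nothing is read from so small a count. Tbc1d30, a GAP for Rab8a that restrains cilium formation, had the second highest fold change of the family, at 0.71 (95% interval 0.46 to 0.97), with levels of 108 and 177. Evi5, a centrosomal protein that acts on Rab11, was higher at 0.43 (95% interval 0.34 to 0.53) and one of the better counted genes, with levels of 1420 and 1916. Tbc1d31, a component of centriolar satellites, was higher at 0.22 (95% interval 0.11 to 0.33). Evi5l, which acts on Rab23 and counters ciliogenesis when overexpressed, was lower at -0.29 (95% interval -0.46 to -0.12), with levels of 481 and 393. Tbc1d32, the cilium protein known as broad-minded, stood at -0.22 (95% interval -0.41 to -0.03) and did not pass after adjustment. The paralogs Evi5 and Evi5l thus stood on opposite sides of 0.

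All 3 genes that serve insulin-responsive transport passed the threshold. They are well counted, as which 56.2% of genes passed, and nothing is read from a count over 3 genes. Tbc1d1, which with Tbc1d4 holds glucose transporter vesicles back through Rab8a, Rab10 and Rab14, was the best counted of the family, and was higher at 0.34 (95% interval 0.25 to 0.44), with levels of 1914 and 2430. Tbc1d4, known as AS160, was lower at -0.22 (95% interval -0.37 to -0.07), with levels of 601 and 517. Tbc1d13, a GAP for Rab35, was lower at -0.50 (95% interval -0.63 to -0.37), with levels of 1040 and 737.

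The endosomal GAPs were the largest group, and of its 9 genes 2 were higher, 4 were lower and 3 did not pass. Of the 9, 8 are well counted, and 29.5% of well-counted genes were higher and 26.7% lower. Tbc1d16, which acts on Rab4a in the recycling of receptors, lies on the minus strand at chr11:119033871-119119347 (GRCm39). It had the lowest fold change of the whole family, at -1.03 (SE 0.08, 95% interval -1.18 to -0.88), a level of 1426 in wild type and 696 in Pkd1-/- cells. Its exons overlap no other annotated gene, and its fold change ranked 398 from the lowest among the well-counted genes. Tbc1d17, known for its part in the recycling of the transferrin receptor, was lower at -0.54 (95% interval -0.76 to -0.32). Usp6nl, or RN-tre, which acts on Rab5 after growth factor stimulation, was lower at -0.30 (95% interval -0.42 to -0.17), with levels of 1785 and 1452. Tbc1d15, a GAP for Rab7 at the contact of lysosomes and mitochondria, was lower at -0.20 (95% interval -0.30 to -0.10).

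Tbc1d2, or Armus, which acts on Rab7, was higher at 0.68 (95% interval 0.30 to 1.05), at levels of 65.3 and 104. Rabgap1l, which acts on Rab22a, was higher at 0.54 (95% interval 0.37 to 0.72), at levels of 588 and 857. The 3 endosomal genes that did not pass were Tbc1d2b at 0.14, Tbc1d5, a partner of retromer, at -0.05, and Rabgap1, a binder of Rab6, at -0.12. The 95% interval of Rabgap1 (-0.24 to -0.01) did not reach 0, while the adjusted p-value stayed above the threshold.

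In the autophagy group, Tbc1d25 and Tbc1d12 were higher and Tbc1d14 did not pass. These 3 genes are well counted, and 29.5% of such genes were higher. Tbc1d25, a GAP for Rab33b on autophagosomes, stood at 0.66 (95% interval 0.47 to 0.85), with levels of 250 and 394. It lies on the X chromosome, whose median was the same to 2 decimals. Tbc1d12 was higher at 0.23 (95% interval 0.07 to 0.40), and Tbc1d14, which binds Rab11 during autophagosome formation, stood at -0.03 (95% interval -0.15 to 0.10). Among the GAPs of the endoplasmic reticulum and Golgi, Tbc1d20, which acts on Rab1, was higher at 0.15 (95% interval 0.03 to 0.26), with levels of 1768 and 1958. Tbc1d22a (0.11) and Tbc1d22b (-0.10) did not pass. Tbc1d23, which captures endosome-derived vesicles at the trans-Golgi, was lower at -0.54 (95% interval -0.66 to -0.41), on chromosome 16, where the median was -0.43.

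The other 8 genes, all well counted, held 2 that were higher, 1 that was lower and 5 that did not pass, where 56.2% of well-counted genes passed. Tbc1d8b, mutated in a hereditary form of nephrotic syndrome, was higher at 0.55 (95% interval 0.40 to 0.71), and lies on the X chromosome with its median of 0.66. Tbc1d9b was higher at 0.26 (95% interval 0.16 to 0.35). Tbc1d24, linked to epilepsy and deafness, was lower at -0.36 (95% interval -0.50 to -0.23). Tbck, Tbc1d9, Grtp1, Tbc1d19 and Tbc1d8 stood between -0.10 and 0.05. Tbc1d23, Tbc1d8b and Tbc1d25 were the only members on the shifted chromosomes 6, 16 and X, and with each fold change taken against the median of its chromosome, these 3 no longer passed. Without that centring, 21 of the other 35 members passed, 11 higher and 10 lower.

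Some of the genes share exon bases with other genes of the table, and reads in those bases may have been assigned to either or to neither. Such bases were shared with a gene on the opposite strand by 16 members, among them Tbc1d17 with Il4i1 (3817 bases), Grtp1 with Lamp1 (2564 bases) and Tbc1d8 with Rpl31 (2233 bases). Rabgap1 and Tbc1d24 shared bases with a gene on the same strand (74 bases with Gpr21 and 168 with Ntn3). The part of these overlaps in the values was not tested.

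Beside the GAPs stand 26 Rabs, those that they act on or bind and relatives of these. The threshold was passed by 15 of them (57.7%), 10 higher and 5 lower, with a median log2 fold change of 0.05. Of the 26, 24 were well counted, and the share that passed was 35.7% over all genes and 56.2% over well-counted genes. Among the latter, 29.5% were higher and 26.7% lower. Rab36, on which Sgsm1 acts, stood at -0.26 (95% interval -0.60 to 0.09, adjusted p = 0.288), with levels of 256 and 214. Rab9, which binds Sgsm1 and Sgsm2, was higher at 0.66 (95% interval 0.51 to 0.82, adjusted p = 3.82e-16), on the X chromosome with its median of 0.66. Rab32, on which Sgsm2 acts, was lower at -0.61 (95% interval -0.85 to -0.37, adjusted p = 4.67e-06). Rab38, its melanosomal relative, was lower by more than 2-fold, at -5.69 (95% interval -8.28 to -3.10, adjusted p = 8.89e-05), from a level of 7.80 to 0.152, the lowest counts among the Rabs of the list.

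For the EPI64 group, Rab35 was higher at 0.11 (adjusted p = 0.0491) and Rab27b at 0.54 (adjusted p = 0.00725), whereas Rab27a stood at -0.26 (adjusted p = 0.0784). Among the Rabs of the cilium, Rab23 was higher at 0.48 (adjusted p = 2.24e-12) and Rab8b at 0.44 (adjusted p = 2.72e-13), Rab11a was lower at -0.53 (adjusted p = 1.92e-20), and Rab8a stood at -0.03 (adjusted p = 0.758) and Rab11b at -0.07 (adjusted p = 0.435). Rab10 (0.02, adjusted p = 0.824) and Rab14 (0.08, adjusted p = 0.198), on which Tbc1d1 and Tbc1d4 act, did not pass. Of the Rabs of the endosome, Rab7 was lower at -0.35 (adjusted p = 1.81e-12), on chromosome 6 with its median of -0.39, Rab22a was higher at 0.17 (adjusted p = 0.00158), and Rab4a, on which Tbc1d16 acts, stood at 0.16 (adjusted p = 0.210). Rab33b (0.20, adjusted p = 0.0223) and Rab1a (0.20, adjusted p = 0.00168), the targets of Tbc1d25 and Tbc1d20, were higher, while Rab1b, the paralog of Rab1a, stood at 0.08 (adjusted p = 0.233). Of the 3 Rab5 genes, on whose products Usp6nl and Sgsm3 act, Rab5b was higher at 0.13 (adjusted p = 0.0291), and Rab5a (-0.05, adjusted p = 0.614) and Rab5c (adjusted p = 0.998) did not pass. Rab6a, bound by Rabgap1, was higher at 0.45 (adjusted p = 2.35e-12), Rab21 was lower at -0.13 (adjusted p = 0.0355), and Rab4b, with a mean of 10.5, stood at -0.24 (adjusted p = 0.784).

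Of 31 exchange factors with values, 29 of them well counted, 25 passed (80.6%, against 35.7% of all and 56.2% of well-counted genes), 10 higher and 15 lower, with a median of -0.02. Among well-counted genes, 29.5% were higher and 26.7% lower. By more than 2-fold, Dennd2d was lower at -2.35 (95% interval -3.13 to -1.57, adjusted p = 2.92e-08, levels of 63.8 and 12.5) and Rab3il1, or Rabin3-like 1, at -1.67 (95% interval -2.35 to -0.99, adjusted p = 9.26e-06). Of 8 genes for a GDI, Rab escort proteins, the prenylation enzymes, the Rab-binding protein Rabif (Mss4) and the Rab3 GAP, which has no TBC domain, 3 were higher (37.5%) and 0 lower. All 8 are well counted, where the shares were 29.5% higher and 26.7% lower, and nothing is read from a count over 8 genes. The 3 higher genes were Chml, a Rab escort protein, at 0.83 (95% interval 0.64 to 1.02), its relative Chm at 0.57, on the X chromosome with its median of 0.66, and Gdi2 at 0.22. In all, 43 of these 65 genes of the Rab cycle passed (66.2%, against the same 35.7% and 56.2%, with 61 of the 65 well counted), 23 higher and 20 lower, and 3 differed by more than 2-fold. All 3 were lower, and their means lay below the well-counted level (3.98 for Rab38, 38.2 for Dennd2d and 50.3 for Rab3il1). Among all genes, 6.4% passed the threshold as lower by more than 2-fold and 2.53% as higher, so nothing is read from this direction.

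**Figure D5:**
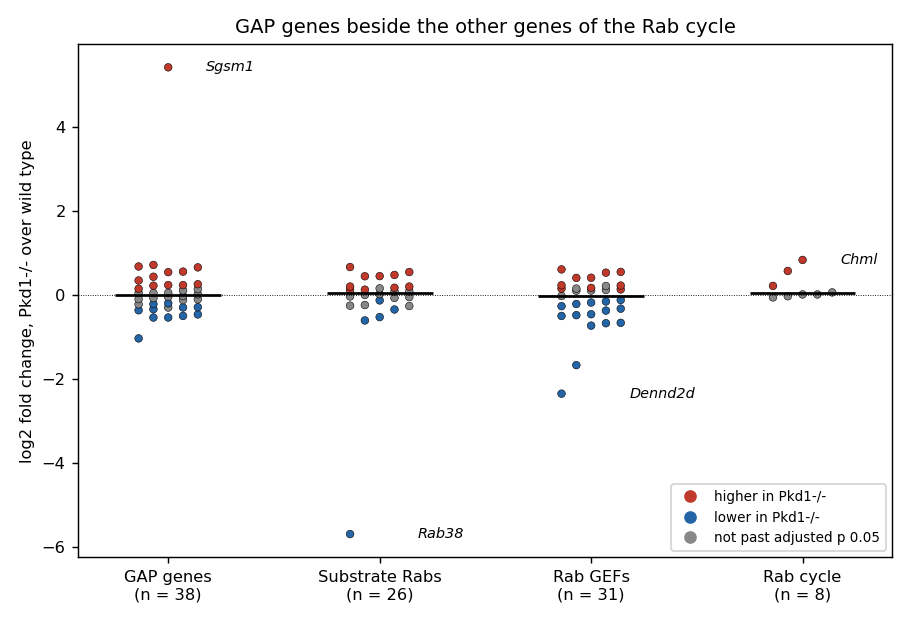
Log2 fold change (Pkd1-/- over wild type, y axis) of the 38 TBC domain GAP genes, 26 Rabs, 31 Rab exchange factors (GEFs) and 8 other genes of the Rab cycle (x axis), each point a gene and each black line the median of its list. The Rabs, labelled substrate Rabs, include some that are only bound by a member or are relatives of a substrate. The medians lie between -0.02 and 0.05, and Sgsm1 at 5.41 and Rab38 at -5.69 are the farthest points.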

How the data were processed

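Per the submitters' processing notes, the authors trimmed reads with Trim Galore 0.4.5, mapped them to GRCm39 with STAR 2.7.5a, counted them per gene with HTSeq 0.11.0 at its default settings, and compared genotypes with DESeq2 1.22.0 under R 3.5.3. The deposited table holds the authors' mean normalized count over all samples (a signal divided by library size factors), the log2 fold change and its SE, the Wald statistic (a score) and p-values. This is the authors' own comparison and the only file used. Samples were grouped by genotype in their titles.

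The deposited log2 fold changes are positive where wild type is higher, judged from genes that the study describes as higher in Pkd1-/- cells, and their sign was reversed here. The test is the Wald test of the authors' DESeq2 fit, and no counts were refitted. The Benjamini-Hochberg adjustment was recomputed over 20624 genes, at a threshold of 0.05, with code tested on simulated data. Intervals are 95%. The level in each genotype was solved from the mean and the fold change of equal groups. Exon lengths, positions and overlaps came from GENCODE vM39 (GRCm39), which held 20122 of the gene identifiers (97.6%). List genes were matched by symbol or, through their identifier, by the GENCODE symbol. Promoter windows came from RefSeq (GRCm38.p6).

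The members and lists were chosen with earlier results of these data known. Named genes were the SGSM, EPI64 and cilium genes, members past a 2-fold change, the 5 highest and 5 lowest by fold change, the 5 highest per kb, list genes past a 2-fold change, Rabs acted on by such members, and the neighbours nearest to Sgsm1. All other members, the other Rabs, Iscu and the 3 higher genes of the Rab cycle list were named to complete their counts, after their values were seen. Some genes of the family and lists are not reported here, and Tbc1d21 had no value to analyse. A planned search for catalytic motifs was not run, as no protein table was used. Alternatives were another adjustment, low-mean filters, fold limits, centring and a wider window. The software was pandas 2.3.3, numpy 2.4.6 and scipy 1.17.1 in Python 3.11.15, with matplotlib 3.10.9 for the plots.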

Additional observations from a re-analysis of the deposited data

How the results depend on the processing

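The count of 24 TBC domain genes past the threshold was 14 with a Bonferroni adjustment (8 higher, 6 lower), which is stricter by construction, and between 22 and 26 with the authors' adjusted p-values, unadjusted p-values, minimum means of 10 or 100, or centring. Centred on the median of all genes, Tbc1d20 no longer passed and Tbc1d32 and Rabgap1 did. Centred on the median of the chromosome, Tbc1d23, Tbc1d8b and Tbc1d25 no longer passed and Tbc1d32 did. The 2 genes past a 2-fold change were 2 under every adjustment, filter and centring run, and 5 with a limit of 1.5-fold, when Tbc1d30, Tbc1d2 and Tbc1d25 joined Sgsm1 and Tbc1d16. The log2 fold change of Sgsm1 was 5.39 centred on all genes and 5.35 centred on chromosome 5. Sgsm1 was chosen for its large increase, so its passing under these alternatives was fixed in advance, and nothing is read from it. The 43 genes of the Rab cycle past the threshold were between 39 and 43 under the alternatives run. The number of neighbours of Sgsm1 past the threshold was 5 of 17 within 1 Mb (29.4%) in place of 1 of 4 within 500 kb (25%). No paired analysis was possible because the table used here has no values of single samples, and leaving out each replicate in turn was not run for the same reason. How far 1 library decides a value was therefore not tested. Genes with low means, such as Tbc1d10c and Rab38, have wide intervals, and the depth per library is unknown.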
